A study of Arabidopsis thaliana with 16 samples.

Results

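The transcripts described here were much more abundant at 10 h than at 4 h in 3 of the 4 combinations of genotype and growth temperature of an Arabidopsis thaliana array series. A probe set was taken when the mean of its 2 arrays at 10 h exceeded the mean of its 2 arrays at 4 h by at least 1.5 on the log2(intensity + 16) scale, a 2.83-fold difference, in phyB-1 at 22 °C, in Ler at 22 °C and in Ler at 16 °C. The members were thus chosen by their time differences on 12 arrays, and the arrays of phyB-1 at 16 °C played no part. Of 22746 probe sets that are not array controls, 139 (0.611%) passed in all 3 groups, and 7 of these were left out by name, namely AKINBETA1, COR27, AT5G19120, AT3G15630, AT3G15450, ATG8E and AT4G33980, the gene known as COR28. The remaining 132 probe sets are the members. The annotation gives 1 gene for 51 of them, which are 50 genes because AT2G30600 has 2 probe sets, and several genes for 2 of them. The other 79 were not listed in the annotation used and are called by their probe set names.

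Ler is the Landsberg erecta wild type and phyB-1 is a mutant of phytochrome B, the red light receptor that holds back stem elongation and shade responses and that also responds to temperature. The 8 groups, with 2 arrays each, were phyB-1 at 22 °C at 10 h and at 4 h, Ler at 22 °C at 10 h and at 4 h, phyB-1 at 16 °C at 10 h and at 4 h, and Ler at 16 °C at 10 h and at 4 h, and each array measured whole plants without roots. The title of the series asks how temperature governs what phyB does. The starting point of the hours is not in the labels, which describe the growth of every sample in the same words (11 days at 16 °C, then 21 days at 22 °C). They also do not say whether replicates were separate plantings, so p-values measure the spread between these samples, which may be technical.

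Transcript levels in leaves change over the day with light, with the circadian clock and with the supply of sugar. As background, genes for the breakdown of starch and of branched-chain amino acids and a set of dormancy-associated genes are known to be more active in the dark or when sugar is short, and several left-out genes belong to the same low-sugar response. Cell wall loosening genes and genes answering to brassinosteroids also follow daily rhythms.

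The arrays of phyB-1 at 16 °C replicate 2 go against their time labels for these transcripts. Over the members, the mean log2 value was 8.92 to 9.30 on the 7 other arrays labelled 10 h and 6.45 to 6.70 on the 7 other arrays labelled 4 h. For replicate 2 of phyB-1 at 16 °C, the array labelled 10 h had 7.12 and the one labelled 4 h had 9.27. The labels were kept, results that rest on these arrays are given with and without them, and tests of genotype and temperature used the mean of both times of each replicate, which is the same whichever array of the pair is labelled 4 h. Median intensities were 36.8 to 41 on the replicate 1 arrays and 30.7 to 33.2 on the replicate 2 arrays, without overlap. The leaf gene RCA, for rubisco activase, read 3990 to 12000 on every array, and the root hair gene EXPA7 read 0.996 to 46.1. Each was the 1 named marker of the 6 in its list. The flower, seed and vein marker lists were not analysed here.

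**Figure D1:**
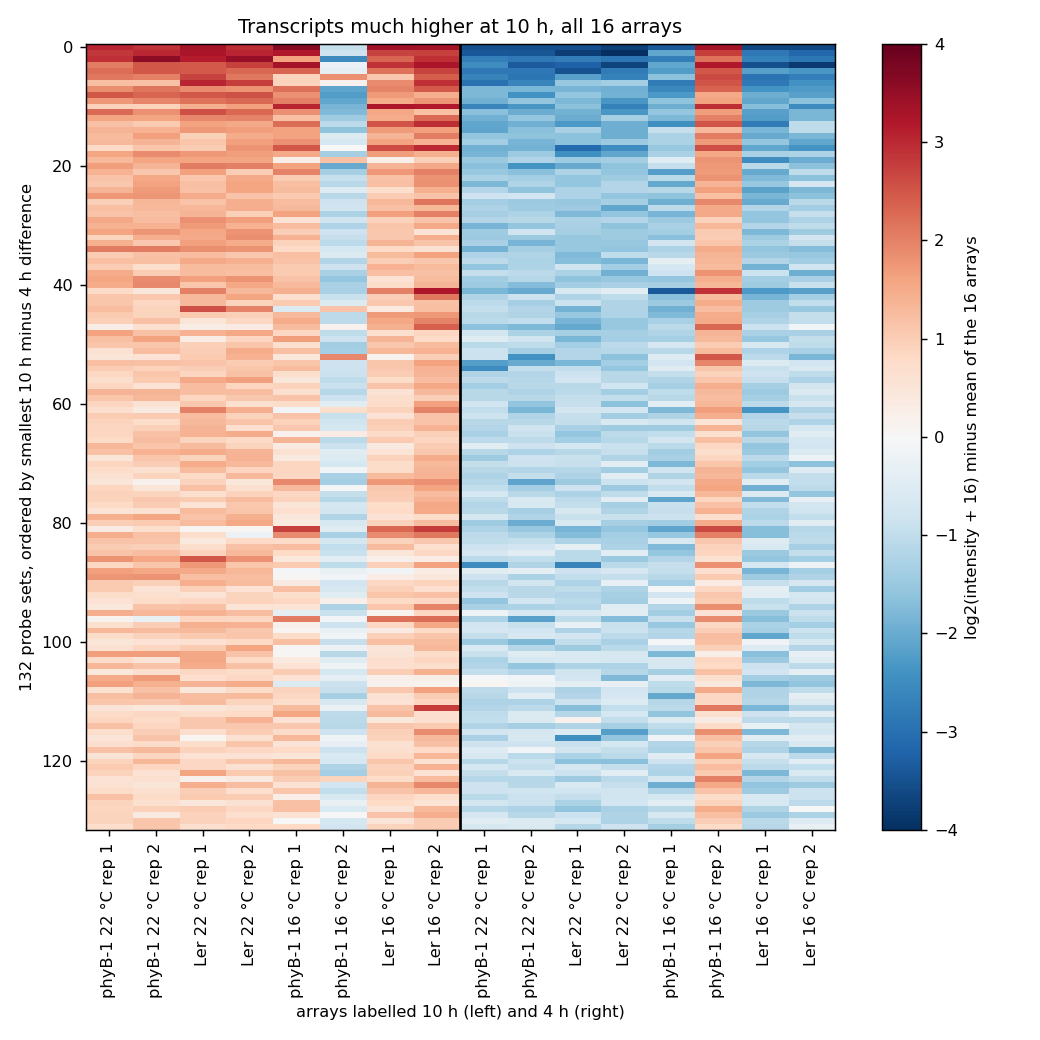
Each row is 1 of the 132 probe sets, ordered by its smallest 10 h minus 4 h difference, and each column is 1 of the 16 arrays, with arrays labelled 10 h left of those labelled 4 h; colour is log2(intensity + 16) minus the mean of the row. The left block is red and the right block blue except for the columns of phyB-1 at 16 °C replicate 2, where the array labelled 10 h is mostly blue and the array labelled 4 h is red.

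The values that chose the members were high at 10 h without overlap. In all 132, each of the 6 arrays at 10 h of the 3 groups was above each of the 6 arrays at 4 h. The 10 h minus 4 h difference had a median of 2.12 in phyB-1 at 22 °C (1.51 to 6.49), 2.28 in Ler at 22 °C (1.53 to 7.10) and 2.25 in Ler at 16 °C (1.51 to 6.99). Over all probe sets, 1.04% passed the threshold in phyB-1 at 22 °C, 1.26% in Ler at 22 °C and 1.41% in Ler at 16 °C, and 191 (0.84%) were at least as far lower at 10 h in all 3. These figures follow from the choice of members and are a description. In whole shoots, fewer cells of a type and less RNA per cell cannot be told apart. At the threshold, AT4G38550, AT3G62550 and PWD lay just inside with smallest differences of 1.52, 1.51 and 1.51, and AT2G27830, AT1G32460 and AT5G43190 lay just outside with 1.49, 1.49 and 1.46.

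The steepest differences were in probe sets without a listed gene. Probe set 252367_at measured 1836 and 1644 at 10 h against 3.56 and 3.48 at 4 h in phyB-1 at 22 °C. In Ler it had 2247 and 1715 at 10 h against 3.66 and 0.793 at 4 h at 22 °C and 2297 and 2247 at 10 h against 1.89 and 2.13 at 4 h at 16 °C. It was below the lower quartile of all 6 arrays at 4 h in these 3 groups, so its difference of 6.49 in phyB-1 at 22 °C, 6.77 in Ler at 22 °C and 6.99 in Ler at 16 °C is set in part by the offset of 16. Probe set 267461_at measured 5920 and 6738 at 10 h against 64.6 and 63.3 at 4 h in phyB-1 at 22 °C. Ler plants gave 8076 and 6896 at 10 h against 45.7 and 32.5 at 4 h at 22 °C and 5506 and 5528 at 10 h against 101 and 79.3 at 4 h at 16 °C. The times did not overlap in any of the 3 groups. Only 245668_at and AT1G17665 were, like 252367_at, below the lower quartile in all 6 arrays at 4 h. Smallest differences over the 3 groups ran from 1.51 to 6.49 with a median of 1.99 in the 79 probe sets not listed and from 1.51 to 3.74 with a median of 1.79 in the 51 with 1 gene.

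Of the members with a named gene, 2 are protein kinases. AT3G59350, a Pti-like serine/threonine kinase, had the widest difference of the named genes, at least 3.74 in each group. Its intensity was 635 and 767 at 10 h against 34.7 and 33.8 at 4 h in phyB-1 at 22 °C. The Ler arrays read 649 and 606 at 10 h against 33.2 and 31.3 at 4 h at 22 °C and 685 and 967 at 10 h against 17.6 and 21.3 at 4 h at 16 °C. The 10 h values were far above the 4 h values in all 3 groups, and the difference was widest in Ler at 16 °C, where the 4 h values were lowest. AT1G48210, a kinase of the same family, measured 139.8 and 182 at 10 h against 30.4 and 27.3 at 4 h in phyB-1 at 22 °C. Its Ler values were 258 and 279 at 10 h against 39.7 and 27.8 at 4 h at 22 °C and 144 and 209.8 at 10 h against 34.2 and 24.4 at 4 h at 16 °C. Its 10 h values were highest in Ler at 22 °C.

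**Figure D2:**
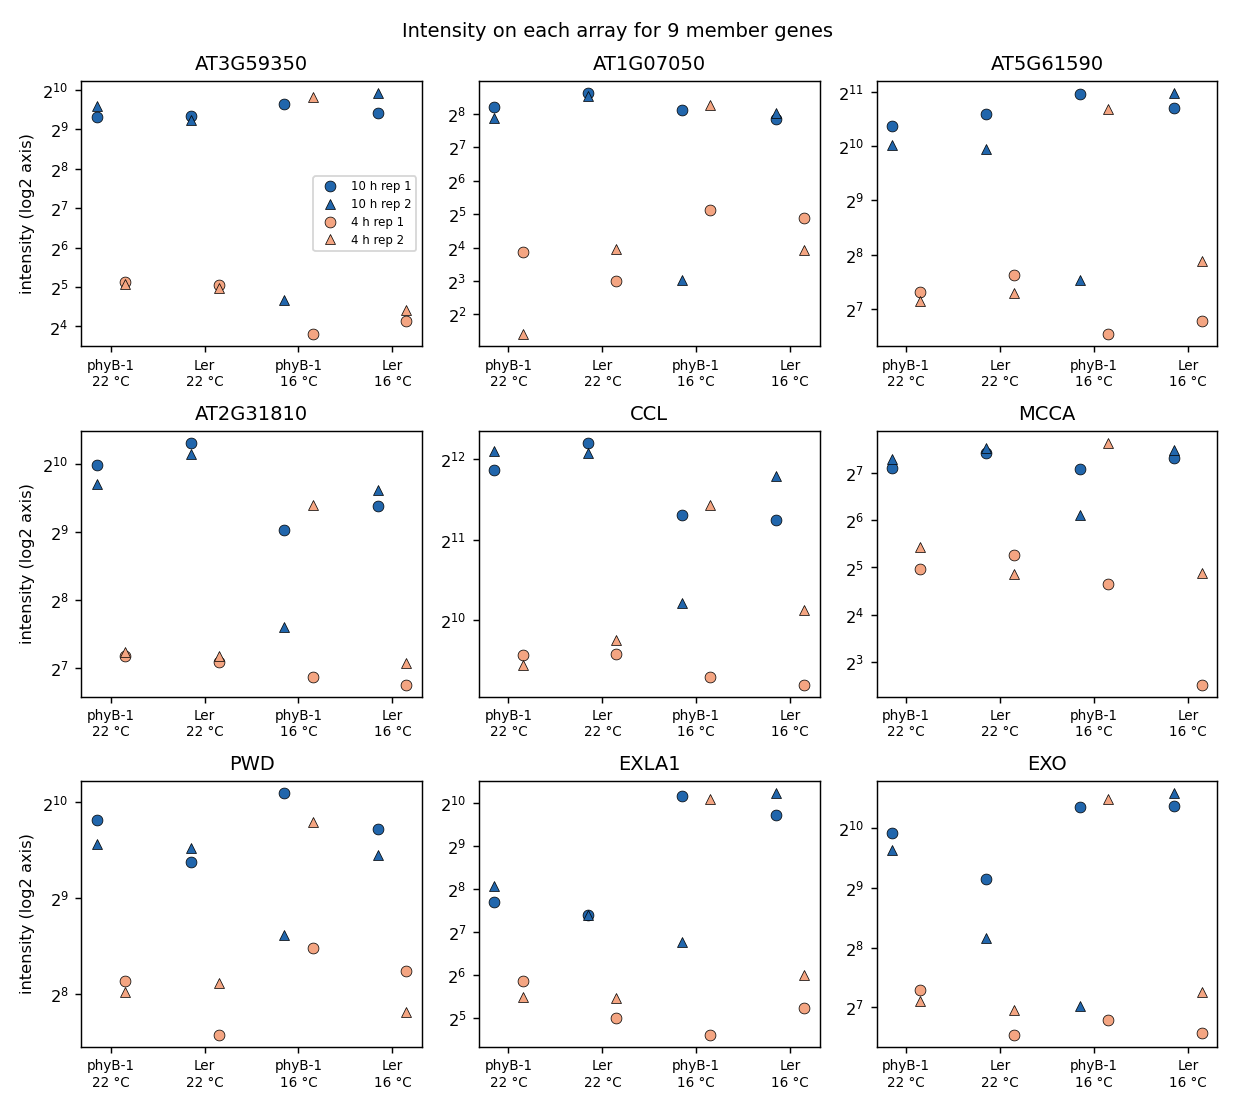
Each panel is 1 member gene; points are single arrays, with phyB-1 left of Ler at each temperature, blue for arrays labelled 10 h and orange for 4 h, circles for replicate 1 and triangles for replicate 2, on a log2 intensity axis. Blue points lie above orange points in every group except phyB-1 at 16 °C, where the triangles lie the other way round.

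Regulators of transcription and of protein turnover numbered 6 genes on 7 probe sets, with smallest differences of 1.61 to 2.91. AT1G07050, a protein with a CCT motif, a domain shared with clock and flowering regulators such as CONSTANS, measured 295 and 236 at 10 h against 14.6 and 2.63 at 4 h in phyB-1 at 22 °C. For Ler there were 396 and 373 at 10 h against 8.03 and 15.7 at 4 h at 22 °C and 233 and 261 at 10 h against 29.8 and 15.3 at 4 h at 16 °C. Its 4 h replicates in phyB-1 at 22 °C were far apart from each other, but both stayed well below the 10 h values. AT5G61590, known as DEWAX, an ERF-family repressor of leaf wax synthesis that is known to be more active in the dark, measured 1314 and 1043 at 10 h against 158 and 142 at 4 h in phyB-1 at 22 °C. In Ler it had 1545 and 985 at 10 h against 198 and 157 at 4 h at 22 °C and 1664 and 2009 at 10 h against 109.5 and 235 at 4 h at 16 °C. AT2G30600, a BTB/POZ domain protein of the kind that can bring targets to ubiquitin ligases, gave close values on its 2 probe sets, with smallest differences of 2.91 and 2.65. AT1G26665, a Mediator subunit that links regulators to RNA polymerase, differed by 2.59 in phyB-1 at 22 °C, 2.58 in Ler at 22 °C and 1.61 in Ler at 16 °C. AT1G23390, a Kelch F-box protein that targets chalcone synthase for destruction, differed by 1.83 in phyB-1 at 22 °C, 2.33 in Ler at 22 °C and 2.11 in Ler at 16 °C. AT5G50450, a MYND zinc finger protein, differed by 1.81 in phyB-1 at 22 °C, 2.12 in Ler at 22 °C and 1.68 in Ler at 16 °C.

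The metabolic genes described next were grouped by known role after their values were seen. AT2G31810, a regulatory small subunit of acetolactate synthase, which opens the synthesis of valine, leucine and isoleucine, measured 1022 and 836 at 10 h against 146 and 151 at 4 h in phyB-1 at 22 °C. Ler plants gave 1270 and 1143 at 10 h against 137 and 146 at 4 h at 22 °C and 668 and 788 at 10 h against 108 and 135 at 4 h at 16 °C. Genes for the breakdown of the same amino acids were members too. MCCA, a subunit of methylcrotonyl-CoA carboxylase in leucine breakdown, measured 138 and 158 at 10 h against 31.3 and 43.4 at 4 h in phyB-1 at 22 °C. The Ler arrays read 173 and 185 at 10 h against 38.5 and 29.2 at 4 h at 22 °C and 162 and 182 at 10 h against 5.70 and 29.7 at 4 h at 16 °C. The lowest of these values, at 4 h in Ler at 16 °C replicate 1, was below the lower quartile of its array. ALDH6B2, methylmalonate semialdehyde dehydrogenase in valine breakdown, measured 543 and 585 at 10 h against 182 and 180 at 4 h in phyB-1 at 22 °C. Its Ler values were 554 and 745 at 10 h against 171 and 201 at 4 h at 22 °C and 519 and 772 at 10 h against 142 and 214 at 4 h at 16 °C. PWD (AT5G26570), the phosphoglucan water dikinase that phosphorylates starch so that it can be degraded, measured 904 and 758 at 10 h against 281 and 258 at 4 h in phyB-1 at 22 °C. For Ler there were 665 and 738 at 10 h against 189.9 and 276 at 4 h at 22 °C and 846 and 702 at 10 h against 301 and 224 at 4 h at 16 °C. Its 3 differences were nearly equal, at 1.56 in phyB-1 at 22 °C, 1.55 in Ler at 22 °C and 1.51 in Ler at 16 °C. AT5G51970, a sorbitol dehydrogenase, differed by 1.82 in phyB-1 at 22 °C, 1.85 in Ler at 22 °C and 1.67 in Ler at 16 °C.

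The 3 cell wall genes differed between temperatures in how far apart the times were. EXLA1, an expansin-like wall protein, measured 207 and 269 at 10 h against 57.9 and 45.2 at 4 h in phyB-1 at 22 °C. In Ler it had 169 and 169 at 10 h against 32.3 and 44.2 at 4 h at 22 °C and 840 and 1194 at 10 h against 38.0 and 64.3 at 4 h at 16 °C. Its 10 h level in Ler at 16 °C was far above that at 22 °C, while its 4 h levels overlapped between the temperatures. EXO, a brassinosteroid-responsive gene of shoot growth, measured 967 and 795 at 10 h against 158 and 138 at 4 h in phyB-1 at 22 °C. Ler plants gave 568 and 287 at 10 h against 93.3 and 124 at 4 h at 22 °C and 1320 and 1531 at 10 h against 94.7 and 153 at 4 h at 16 °C. AT5G62360, an inhibitor of the pectin methylesterase and invertase type, went the other way, with differences of 2.82 in phyB-1 at 22 °C, 3.28 in Ler at 22 °C and 1.71 in Ler at 16 °C, but its replicates at 22 °C and 4 h were far apart, at 5.84 and 38.8 in phyB-1 and 3.81 and 43.2 in Ler.

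CCL, known for its short-lived clock-controlled transcript, measured 3748 and 4398 at 10 h against 759 and 698 at 4 h in phyB-1 at 22 °C. The Ler arrays read 4704 and 4310 at 10 h against 762 and 864 at 4 h at 22 °C and 2425 and 3557 at 10 h against 587 and 1112 at 4 h at 16 °C. The 3 genes grouped here under dormancy and low-sugar families had smallest differences of 1.69 to 2.09. The highest was that of AT2G20670, whose family has no known function. AT1G56220, of the dormancy and auxin associated family, differed by 1.82 in phyB-1 at 22 °C, 1.88 in Ler at 22 °C and 2.23 in Ler at 16 °C. AT4G27450, of the aluminium-induced family that also holds the left-out AT3G15450, differed by 2.82 in phyB-1 at 22 °C, 2.20 in Ler at 22 °C and 1.69 in Ler at 16 °C. AT2G20670, of a family without known function, differed by 2.18 in phyB-1 at 22 °C, 2.09 in Ler at 22 °C and 2.40 in Ler at 16 °C. AT5G14120, a transporter of the major facilitator type, measured 1697 and 2464 at 10 h against 217 and 339 at 4 h in phyB-1 at 22 °C. Its Ler values were 1854 and 2427 at 10 h against 263 and 347 at 4 h at 22 °C and 1851 and 2862 at 10 h against 266 and 498 at 4 h at 16 °C.

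The remaining named members covered several smaller roles. Hydrolases were AT1G25230, a purple acid phosphatase, AT5G44020, an acid phosphatase of the haloacid dehalogenase type, SCPL34, a serine carboxypeptidase-like protein, and AT1G21680, a dipeptidyl peptidase-like protein, with smallest differences of 1.59 to 1.86. Stress and defence genes were AT3G10020, a hypoxia-responsive gene, AT3G62550, a universal stress protein, AT4G21870, of the small heat shock protein type, and LCR69, a plant defensin, with smallest differences of 1.51 to 2.53. AT2G37540, a short-chain dehydrogenase, and AT2G23910, a reductase-like protein, had smallest differences of 1.79 and 1.83. The 6 genes of other known families, among them AT5G24490, of a plastid ribosomal protein family, AT1G78450, of the SOUL haem-binding family, and AT4G16146, a relative of cAMP-regulated phosphoproteins, ran from 1.52 to 1.74. For 13 genes no role is given here, and they ran from 1.57 to 2.45, with AT2G30930, AT1G25275, AT1G54740 and AT5G11070 highest. The 50 genes lie on all 5 chromosomes, with 15, 12, 5, 6 and 12 on chromosomes 1 to 5, and the closest pair among them, AT1G25230 and AT1G25275, has 4 genes between them in RefSeq's TAIR10.1 table.

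The phyB-1 plants at 16 °C were the only ones whose time difference the choice of members had not used. In replicate 1 of phyB-1 at 16 °C every member was higher at 10 h, 132 of 132, where 52.6% of all probe sets were, and 102 were at least 1.5 higher, where 1.47% of all probe sets were. The median difference was 2.1, with a range of 0.48 to 7.01. In replicate 2 every member was lower on the array labelled 10 h than on the array labelled 4 h, where 47.5% of all probe sets were, and 99 were at least 1.5 lower, where 1.13% of all probe sets were. The median there was −2.11, with a range of −4.82 to −0.06. Set against the 12 arrays that chose the members, the replicate 1 array labelled 10 h was above all 6 arrays at 4 h for 130 members, and the replicate 1 array labelled 4 h was below all 6 arrays at 10 h for 132. For replicate 2 the array labelled 10 h was below all 6 arrays at 10 h for 125 members, and the array labelled 4 h was above all 6 arrays at 4 h for 132. Every member had a full gap between the times on those 12 arrays, and no share over all probe sets was counted, so these counts are a description.

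**Figure D3:**
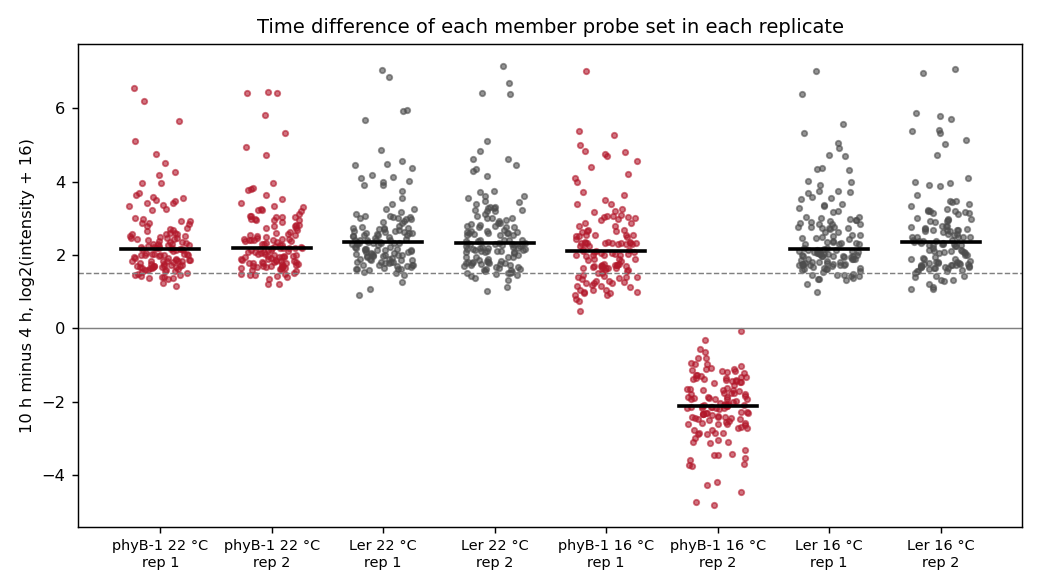
Each point is 1 of the 132 members in 1 replicate, phyB-1 in red left of Ler in grey at each temperature; the vertical axis is 10 h minus 4 h on the log2(intensity + 16) scale, bars are medians and the dashed line is the threshold of 1.5. The 7 other replicates lie above 0, with a median of 2.1 in phyB-1 at 16 °C replicate 1, and replicate 2 of phyB-1 at 16 °C lies below 0 with a median of −2.11.

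By the labels, the 2 replicates cancelled. In limma's fit of all 16 arrays, none of 131 tested members differed between 10 h and 4 h in phyB-1 at 16 °C, none of them at an unadjusted p under 0.05, and of all probe sets 0% were called and 168 had an unadjusted p under 0.05. Without the 2 arrays of replicate 2, 113 of 131 members rose at 10 h and 0 fell, where 3.46% of all probe sets rose and 4.41% fell (limma, Benjamini-Hochberg adjusted p under 0.05). In that fit each time of phyB-1 at 16 °C rests on 1 array, which is taken to vary like the arrays of the other groups. Without replicate 1 instead, the median member difference by the labels was −2.11. The replicate 1 array labelled 10 h also had the highest GAPDH 3'/5' signal ratio, 1.63 on the log2 scale. The other arrays labelled 10 h had 0.474 to 0.812, and its partner at 4 h had 1.03. The actin 3'/5' ratio of the replicate 1 array labelled 10 h was 3.17, the lowest of the arrays labelled 10 h. The others had 3.18 to 4.26, so the 2 controls differed. Such ratios are a sign of RNA quality whose part in the result was not tested.

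Single genes show the size of the difference in phyB-1 at 16 °C. In replicate 1, EXLA1 had 1143 at 10 h against 24.5 at 4 h, a difference of 4.84 ± 0.34 (SE), adjusted p = 2.13e-07 in limma's fit without replicate 2. In replicate 2, EXLA1 had 109 on the array labelled 10 h and 1086 on the array labelled 4 h. AT3G59350 had 797 at 10 h against 13.9 at 4 h in replicate 1, a difference of 4.76 ± 0.29 (SE), adjusted p = 4.21e-08 in the same fit, and in replicate 2 it had 25.6 on the array labelled 10 h and 897 on the array labelled 4 h. AT5G61590 had 1975 at 10 h against 92.6 at 4 h in replicate 1, a difference of 4.20 ± 0.40 (SE), adjusted p = 4.34e-06, and 185 on the array labelled 10 h and 1640 on the array labelled 4 h in replicate 2. These were the 3 named genes with the largest replicate 1 difference. The 3 with the smallest were AT1G21680, AT5G51970 and AT1G78450, and none of them passed the test. AT1G21680 had 396 at 10 h against 203 at 4 h in replicate 1 (limma adjusted p = 0.0672), AT5G51970 had 287 at 10 h against 132 at 4 h (adjusted p = 0.0934) and AT1G78450 had 74.6 at 10 h against 27.9 at 4 h (adjusted p = 0.214).

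AT2G31810, MCCA, ALDH6B2, PWD and CCL also rose in that fit. AT2G31810 had 526 at 10 h against 117 at 4 h in phyB-1 at 16 °C replicate 1, a difference of 2.03 ± 0.26 (SE), adjusted p = 8.99e-05 by limma. MCCA had 137 at 10 h against 25.2 at 4 h, a difference of 1.89 ± 0.40 (SE), adjusted p = 0.00657. ALDH6B2 had 497 at 10 h against 139.7 at 4 h, a difference of 1.72 ± 0.32 (SE), adjusted p = 0.00249. PWD had 1094 at 10 h against 357 at 4 h, a difference of 1.57 ± 0.29 (SE), adjusted p = 0.00236. CCL had 2540 at 10 h against 629 at 4 h, a difference of 1.99 ± 0.35 (SE), adjusted p = 0.00148. In replicate 2 the array labelled 4 h was the higher of the pair for each of these 5 genes, as for all members.

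For part of the members the difference between the times was larger at one temperature than at the other, with the replicates apart. In Ler, the 2 replicate differences at 22 °C were both below the 2 at 16 °C for 29 members (22.0%, against 20% of all probe sets) and both above them for 42 (31.8%, against 19.9% of all probe sets), so the first share is near that of all probe sets. These values come from arrays that chose the members and carry no test. The arrays of phyB-1 at 16 °C were not used in the choice, and those of replicate 1 can be set beside them. Of the 29 members with the larger Ler difference at 16 °C, the phyB-1 replicate 1 difference at 16 °C exceeded both phyB-1 differences at 22 °C in 22, or 75.9%, where among all probe sets split the same way it did so in 53.2%. Of the 42 members with the larger Ler difference at 22 °C, it lay below both phyB-1 differences at 22 °C in 34, or 81%, where among all probe sets split the same way it did so in 47.1%. The phyB-1 differences at 22 °C did choose the members, each of which had to reach 1.5 there, so a value at 16 °C below both was favoured by the choice. Over all 132 members the phyB-1 replicate 1 difference lay below both in 55.3%, and over the 61 members whose Ler differences overlapped in 57.4%, against 34% of all probe sets. It lay above both in 33.3% of all members and in 26.2% of those 61, against 40.9% of all probe sets. Replicate 2 of phyB-1 at 16 °C gave a negative difference for every member and was not set beside them.

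**Figure D4:**
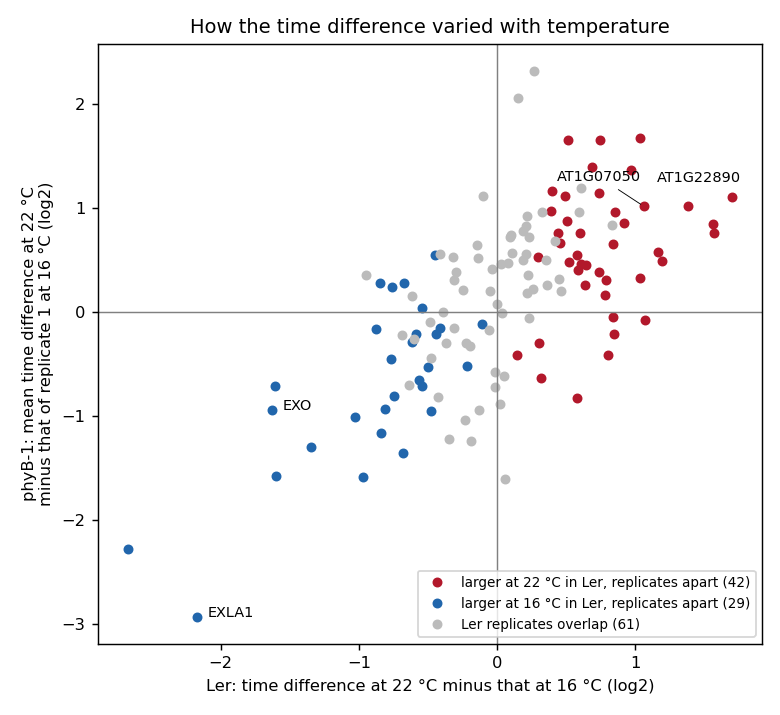
Each point is 1 of the 132 members; the horizontal axis is the Ler time difference (10 h minus 4 h, log2) at 22 °C minus that at 16 °C, and the vertical axis is the same in phyB-1 with replicate 1 alone at 16 °C. Red points had a larger Ler difference at 22 °C with replicates apart (42), blue points a larger one at 16 °C (29) and grey points overlapped (61); EXLA1 and EXO are at the lower left and AT1G22890 and AT1G07050 at the upper right.

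Members of both kinds are shown next, picked for large differences after the values were seen. Of the first kind, the EXLA1 difference was 1.59 and 2.22 in phyB-1 at 22 °C and 4.84 in phyB-1 at 16 °C replicate 1, beside Ler means of 1.78 at 22 °C and 3.95 at 16 °C. EXO had 2.5 and 2.4 in phyB-1 at 22 °C and 3.39 in phyB-1 at 16 °C replicate 1, beside Ler means of 1.76 at 22 °C and 3.39 at 16 °C. Other named members of that kind had small shifts in phyB-1, with a 22 °C minus 16 °C value of −0.15 for the AT2G30600 probe set 267523_at and −0.21 for AT2G23910. Of the second kind, AT1G22890, a gene with no role given here, had 2.87 and 2.51 in phyB-1 at 22 °C and 1.58 in phyB-1 at 16 °C replicate 1, beside Ler means of 3.42 at 22 °C and 1.72 at 16 °C. AT1G07050 had 3.34 and 3.76 in phyB-1 at 22 °C and 2.53 in phyB-1 at 16 °C replicate 1, beside Ler means of 3.86 at 22 °C and 2.80 at 16 °C. Not every member of that kind had the same sign in phyB-1, where the shift was −0.83 for AT5G44020, −0.42 for AT5G14120 and −0.21 for AT3G62550. Between genotypes at 22 °C, both phyB-1 differences were below both Ler differences for 36 members (27.3%, against 16.8% of all probe sets) and above them for 9 (6.82%, against 16.8%), again on arrays that chose the members.

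Levels averaged over both times answer whether the members also differed with temperature. In Ler, 1 of 131 tested members was higher at 22 °C and 1 was lower (limma on time averages, adjusted p under 0.05), where 0.11% of all probe sets were higher and 0.234% lower. In phyB-1, 1 was higher and 6 were lower at 22 °C, where 0.41% of all probe sets were higher and 0.447% lower. The median member difference, 22 minus 16 °C, was −0.02 in Ler and −0.11 in phyB-1, beside 0.01 and −0.00 over all probe sets tested. Same-numbered replicates deviated together, so the fit with the replicate number as a block is given beside these counts. With the block, 4 members were higher and 10 lower at 22 °C in Ler (0.894% and 1.31% of all probe sets), and 7 were higher and 13 lower in phyB-1 (1.94% and 1.73%). The temperature differences of the members in Ler and in phyB-1, which share no array, correlated at 0.557 over 131 members and at 0.558 over all 13648 probe sets tested, a description in which the members do not stand apart. The calls rest on few arrays, and the counts that follow are of members alone, with no share over all probe sets. Without either Ler replicate at either temperature 0 members were called in Ler, and without either replicate of phyB-1 at 16 °C 3 were higher and 3 lower. In phyB-1, leaving out replicate 1 at 16 °C gave 0 higher and 17 lower, leaving out replicate 2 at 16 °C, the pair that goes against its time labels, gave 3 higher and 2 lower, and leaving out either replicate at 22 °C left 0 or 1 called.

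**Figure D5:**
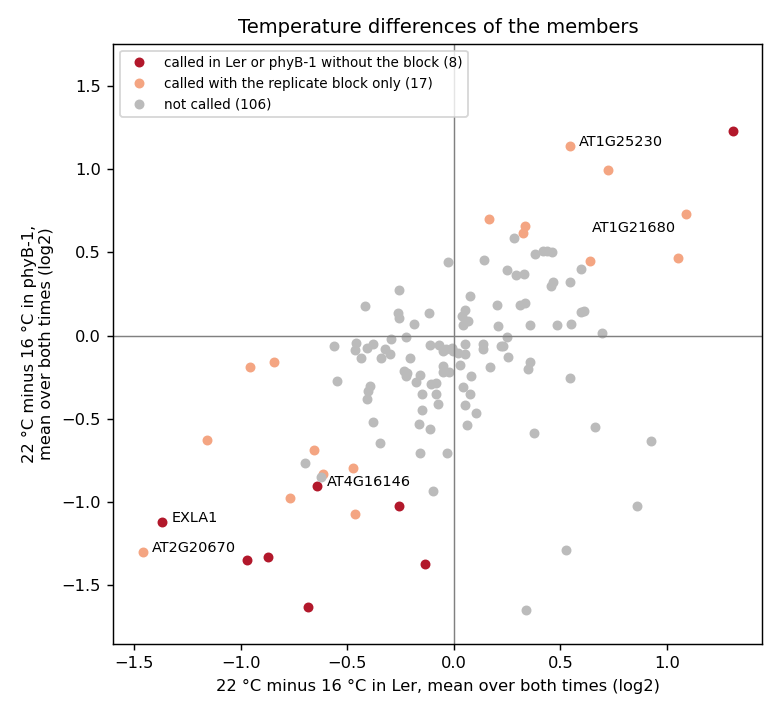
Each point is 1 of the 131 tested members; axes are the 22 minus 16 °C difference of the mean over both times on the log2 scale, Ler across and phyB-1 up. Dark red points were called in either genotype by limma without the block (8), orange points with the replicate block only (17) and grey points in neither (106); EXLA1 and AT2G20670 lie at the lower left and AT1G21680 at the right.

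EXLA1 was the named member that fell at 22 °C in Ler. The log2 differences here are between means of log2 values, so they are smaller than the ratios of the averaged intensities printed beside them where 1 time dominates. Its intensity averaged over both times was 101 and 107 in Ler at 22 °C, against 439 and 629 in Ler at 16 °C, a log2 difference of −1.37 ± 0.25 (SE, limma adjusted p = 0.0433). Leaving out any 1 of its Ler replicates gave adjusted p of 0.0831 to 0.319, and an offset of 1, quantile normalization, median centring or no filter gave 0.075 to 0.229. In phyB-1 it averaged 132 and 157 at 22 °C, against 584 and 597 at 16 °C, a difference of −1.12. Limma called that difference with the block and not without it (adjusted p = 0.00447 and 0.0705). With an offset of 64 and no block the limma adjusted p was 0.0178. The EXLA1 difference was −0.74 without replicate 2 of phyB-1 at 16 °C and −1.51 without replicate 1. The replicates at 22 °C and at 16 °C did not overlap in either genotype. AT4G16146 fell at 22 °C in phyB-1, to 165 and 168 against 318 and 273 at 16 °C, a log2 difference of −0.91 ± 0.18 (SE, limma adjusted p = 0.0439). Without replicate 2 of phyB-1 at 16 °C it was −1.12 (adjusted p = 0.0356), and without replicate 1 it was −0.69 (adjusted p = 0.231). In Ler it averaged 192 and 206 at 22 °C, against 316 and 297 at 16 °C, a difference of −0.64. Limma called that difference with the block and not without it (adjusted p = 0.0335 and 0.212). The fit of 12 arrays without phyB-1 at 16 °C, which has no block, gave a limma adjusted p of 0.0317. Among probe sets not listed, 260592_at rose at 22 °C in both genotypes, with 288 and 240 at 22 °C against 69.8 and 122 at 16 °C in phyB-1 (limma adjusted p = 0.0174) and 229 and 244 at 22 °C against 87.0 and 89.2 at 16 °C in Ler (adjusted p = 0.0221). Without a filter or after median centring the calls of AT4G16146 (adjusted p = 0.0791 and 0.117) and of 260592_at (0.0513 and 0.0824 in phyB-1, 0.0585 and 0.124 in Ler) were lost. The other members that fell in phyB-1 at 22 °C were 253061_at, 246114_at, 251642_at, 257315_at and 267461_at, with differences of −1.63, −1.37, −1.35, −1.33 and −1.02 (limma adjusted p = 0.00901 to 0.0439). Without replicate 2 of phyB-1 at 16 °C the differences were −1.47, −0.94, −0.94, −1.33 and −0.82 in the same order. After median centring or without a filter, limma no longer called 246114_at (adjusted p = 0.141 and 0.0558), 251642_at (0.23 and 0.109) or 267461_at (0.189 and 0.0534). It still called 253061_at (0.0287 and 0.0432) and 257315_at (0.0311 and 0.0219). In limma's fit of 8 group means over 16 arrays none of 253061_at, 246114_at, 251642_at, 257315_at and 267461_at passed (adjusted p = 0.241 to 0.726). That fit goes by the time labels, so the opposite time differences of the phyB-1 16 °C replicates enter its spread. It cannot decide whether these calls hold.

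With the replicate block, more named members passed in limma. AT2G20670 had the largest fall in Ler, with time averages of 201 and 221 at 22 °C against 467 and 908 at 16 °C, a difference of −1.46 (block adjusted p = 0.00404, 0.11 without the block). In phyB-1 it averaged 210.5 and 258 at 22 °C against 411 and 878 at 16 °C, a difference of −1.30 (block adjusted p = 0.00534, 0.125 without). Without phyB-1 16 °C replicate 2, and with no block, that was −0.73 (adjusted p = 0.308). At 16 °C replicate 2 was well above replicate 1 in both genotypes. LCR69 and EXO were lower at 22 °C in Ler, with differences of −1.16 and −0.96 and block adjusted p of 0.00641 and 0.0131. AT1G21680 was higher at 22 °C in both genotypes, by 0.73 in phyB-1 and 1.09 in Ler, with block adjusted p of 0.037 and 0.00641. Without phyB-1 16 °C replicate 1, and with no block, its difference in phyB-1 was 0.40 (adjusted p = 0.734). AT1G22890 was higher by 1.05 in Ler alone (block adjusted p = 0.0178), which does not show that the genotypes differ. The phosphatase genes AT1G25230 and AT5G44020 and the dehydrogenase gene AT5G51970 were higher at 22 °C in phyB-1, by 1.14, 0.70 and 1.00. Their block adjusted p was 0.00678, 0.0134 and 0.0257, and 0.0599, 0.24 and 0.124 without the block. With no block, their differences were 0.92, 0.52 and 0.63 without phyB-1 16 °C replicate 1. Without replicate 2 they were 1.36, 0.885 and 1.36. AT5G62360 passed only in the fit with the replicate block, in both genotypes. Its differences were −0.68 in phyB-1 and −0.66 in Ler (block adjusted p = 0.0279 and 0.0436). Its adjusted p was 0.388 and 0.491 without the block and 0.134 and 0.122 in the 14-array fit with the block. Its difference was −0.29 in phyB-1 without phyB-1 22 °C replicate 1 and −0.37 in Ler without Ler 16 °C replicate 2.

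Few members differed in level between the genotypes. At 22 °C, 0 of 131 members were higher and 0 lower in phyB-1 than in Ler by limma on time averages. Of all probe sets, 0.00733% were called higher. At an unadjusted p under 0.05, 9 members were higher and 6 lower, where 355 and 222 of all 13648 probe sets tested were. At 16 °C, 0 members were higher and 0 lower, and 0.022% of all probe sets were called higher. At an unadjusted p under 0.05, 16 members were higher and 1 lower, where 435 and 205 of all 13648 probe sets tested were. With the replicate block, 2 members were higher in phyB-1 at each temperature, where 0.147% of all probe sets were higher and 0.0293% lower at 22 °C, and 0.183% higher and 0.0366% lower at 16 °C. These were 245885_at and 247189_at at 22 °C, by 1.01 and 0.89 (block adjusted p = 0.0315 and 0.0443), and 246114_at and 267461_at at 16 °C, by 1.35 and 0.91 (0.0295 and 0.047). The count at 16 °C depended on which replicate of phyB-1 at 16 °C was left out, which leaves 1 time average in that group. The median member difference was −0.02 at 22 °C and 0.06 at 16 °C. EXO had the smallest p among the named genes at 22 °C, with time averages of 562 and 467 in phyB-1 against 330.4 and 206 in Ler, a difference of 0.75 ± 0.19 (SE, limma adjusted p = 0.495). AT2G30600 had it at 16 °C, with 439 and 426 in phyB-1 against 376 and 313 in Ler, a difference of 0.54 ± 0.19 (SE, adjusted p = 0.959).

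No member passed the test of whether the genotype difference depended on temperature. The interaction, the genotype difference at 22 °C minus that at 16 °C, was called for 0 of 131 members by limma, with a smallest adjusted p of 1. At an unadjusted p under 0.05, 3 members were above and 7 below 0, where 147 and 139 of all 13648 probe sets tested were. With the replicate block 0 were called, with a smallest adjusted p of 0.587. The count depended on which replicate of phyB-1 at 16 °C was left out, which leaves 1 time average in that group. Over all probe sets 0% were called with or without the block. EXO again had the smallest p among the named genes, with an interaction of 0.77 ± 0.26 (SE, adjusted p = 1). Its time averages were 562 and 467 in phyB-1 at 22 °C, 330.4 and 206 in Ler at 22 °C, 711 and 786 in phyB-1 at 16 °C and 707 and 842 in Ler at 16 °C, so that Ler at 22 °C was the lowest of the 4.

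Other genes of the pathways around the members were read from 10 lists of 143 genes. A named probe set existed for 31 of these, and 2 were members, MCCA and PWD. In the dark and sugar starvation list, 8 of 27 genes had a named probe set, and 4 of them are among the genes left out by name. Those left-out genes passed the same threshold and MCCA is a member, so their higher values at 10 h follow from the choice. The rest, MCCB, IVD and ETFQO, were also higher at 10 h in all 3 groups, as were 21.8% of all probe sets. Of the leucine breakdown genes in that list that were not members, MCCB, the other carboxylase subunit, differed by 0.71 in phyB-1 at 22 °C, 0.69 in Ler at 22 °C and 0.86 in Ler at 16 °C. IVD, isovaleryl-CoA dehydrogenase, differed by 0.73, 0.42 and 0.09 in the same 3 groups, and ETFQO, which takes its electrons, by 0.48, 0.68 and 0.60. MCCA, with 1.63 in phyB-1 at 22 °C, 1.97 in Ler at 22 °C and 2.57 in Ler at 16 °C, was the one gene of these 4 past the threshold. In the starch breakdown list, DPE1, the plastid disproportionating enzyme, differed by 0.99 in phyB-1 at 22 °C, 1.26 in Ler at 22 °C and 0.76 in Ler at 16 °C beside PWD, and the other 15 of 17 genes had no named probe set. All 4 named photosynthesis genes were lower at 10 h in the 3 groups, as were 27.8% of all probe sets, with differences for RCA of −0.89 in phyB-1 at 22 °C, −0.89 in Ler at 22 °C and −0.76 in Ler at 16 °C. Of the evening clock genes, GI, which couples the clock to flowering, differed by −0.72 in phyB-1 at 22 °C, −0.96 in Ler at 22 °C and −0.59 in Ler at 16 °C. The other 2 named genes of that list were left out by name and were higher at 10 h, with COR27 at 4.94, 5.31 and 4.92 and AT4G33980 at 3.32, 3.42 and 2.55 in the same groups. The light signalling gene HYH, a bZIP factor, differed by −2.13, −1.56 and −1.90 in the same groups. With 31 of 143 genes named, the lists do not show how a whole pathway behaved.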

How the data were processed

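The authors deposited linear intensity values, one for each probe set. Per the submitters' processing notes, MAS5 and GCOS were used, with versions not given in the sources used here. Values were analysed as log2(intensity + 16) in R 4.3.3 with limma 3.58.1 (eBayes with trend, Benjamini-Hochberg adjustment). The offset shrinks differences of weak signals. The 64 array controls were left out. The upper 60% by mean (13648 probe sets) were tested, 131 of the 132 members among them, and an adjusted p under 0.05 is called. Genotype and temperature were tested on the mean of both times of each replicate, 8 values, with alternatives in offset, scaling, filter, replicate block, array set and left-out replicates. The number of arrays limits the precision.

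Deviations of same-numbered time averages from their group means correlated at 0.24 to 0.55 in all 6 pairs of groups, so the labels' replicate numbers were taken to pair the samples. Genes were named from the platform annotation (13513 probe sets with 1 gene, 503 with several, 8730 not listed) and RefSeq's TAIR10.1 table. The members and lists were chosen with earlier results of these data known. By rule the text names the 15 named members of largest smallest difference, those beside the threshold, called members or those of smallest p, the 3 highest and 3 lowest in phyB-1 at 16 °C replicate 1, and list members. Genes named for their role, and the examples of temperature by time, were chosen after their values were seen. PHYB had no named probe set and was not analysed here.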

Additional observations from a re-analysis of the deposited data

How the results depend on the processing

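The number of members (132) was 215 with an offset of 1, 65 with an offset of 64 and 54 with a threshold of 2. It was 125 with quantile normalization, 140 with median centring, and 122 to 133 with 1 replicate alone. All 132 were among the 215. Of the 132 members, 109 were among the 122 found with replicate 1 alone and 111 among the 133 found with replicate 2 alone. With other fits, members called for genotype at 22 °C (0) numbered 2 with the replicate block, 7 in the 14-array fit with block (without phyB-1 16 °C replicate 2), 3 in the fit of 12 arrays without phyB-1 at 16 °C, and 0 to 1 when 1 replicate was left out. For genotype at 16 °C (0) they numbered 2 with the block and 0 to 9 with 1 replicate left out, the 9 without phyB-1 16 °C replicate 1. For temperature in Ler (2) they numbered 1 with an offset of 1, 5 with an offset of 64, 1 after quantile normalization, 0 after median centring, 0 without a filter, 14 with the block, 1 with 8 group means over 16 arrays, 30 in the 14-array fit, 19 in the 12-array fit and 0 to 6 with 1 replicate left out. For temperature in phyB-1 (7, with 1 higher and 6 lower at 22 °C; 3 and 2 without phyB-1 16 °C replicate 2) they numbered 2 after median centring, 2 without a filter, 20 with the block, 1 with 8 group means, 24 (13 higher, 11 lower) in the 14-array fit and 0 to 17 with 1 replicate left out, the 17 without phyB-1 16 °C replicate 1. For the interaction (0) they numbered 0 to 6, the 6 without phyB-1 16 °C replicate 1. For time in phyB-1 at 16 °C (0) leaving out a replicate gave 112, all lower, without replicate 1 and 113, all higher, without replicate 2. These counts are of members alone, with no share over all probe sets beside them, and the cause of the changes was not tested. The fit of 8 group means goes by the time labels, so the opposite time differences of the phyB-1 16 °C replicates enter its spread. A scaling moved the median of all probe sets by at most 0.064. The single-member results are those of members called in the main fit or with the block. Of these, 514 stayed on their side of the threshold, 90 passed it and 58 no longer did. The 90 include the replicate block setting, which results called only with the block pass by their selection. The 514 include results that were not called in the main fit and stayed so, while the 58 all fell on results called there. The 2 arrays per group limit all calls, and dim 4 h signals limit the size of the largest differences.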
